A study of Bos taurus with 9 samples.

Results

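The regions described here carried acetylated lysine 27 of histone H3 (H3K27ac) in rumen tissue both before and after 24 h of butyrate, and acetylated lysine 9 (H3K9ac) only after it. They were chosen from the peak lists themselves. All overlapping peaks of the 4 acetylation lists on chromosomes 1 to 29 were merged into 46982 regions, of which 21132 held an H3K27ac peak of both conditions. Of these, 1924 also held a butyrate H3K9ac peak and no control H3K9ac peak. They made up 9.10% of the regions with H3K27ac in both conditions and 4.10% of all merged regions. The presence of the 3 kinds of peak is the choice itself and is not a finding, and the widths of those peaks come from the same lists and are given as a description.

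The study performed chromatin immunoprecipitation followed by sequencing on rumen tissue of cattle of 1 breed, Holstein (spelled Hostein in the labels). The methods refer to butyrate infusion and rumen biopsies, and the control tissue was taken before the treatment. There was 1 library for each of 4 antibodies (H3K9ac, H3K27ac, H3K9me3 and RNA pol II) in each of 2 conditions, plus 1 input library that served every peak call. The age, number and pooling of the animals are not given in the sources used here. With 1 library per group there was no spread between replicates and no test between conditions was possible, so the intervals given for shares are 95% Wilson intervals that cover counting error only. Tissue holds several cell types, and a mark present in more cells cannot be told apart from a stronger mark per cell. The tissue label was not checked against marker genes, since gene positions were not analysed here. By the labels, lane 1 carried both control acetylation libraries and lane 3 both butyrate ones, so lane and condition cannot be told apart for these marks. The same holds for H3K9me3, with control on lane 3 and butyrate on lane 4. Read depth per library was not used here and was not corrected for.

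Acetylation of histone tails loosens the contact between histones and DNA and recruits proteins that read acetylated lysine. H3K27ac marks active enhancers and promoters, whereas H3K9ac is known mostly from active promoters, where RNA polymerase II is loaded. Butyrate, which rumen microbes make from plant fibre and the rumen wall takes up, inhibits the histone deacetylases that remove these acetyl groups. H3K9me3, a methyl mark on the same lysine 9, is typical of silent heterochromatin.

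The autosomal lists held 4075 H3K9ac peaks in control and 4255 after butyrate, and 36963 and 32763 H3K27ac peaks. Of the butyrate H3K9ac peaks, 1966 (46.2%, interval 44.7 to 47.7) lay in the 1924 regions. Another 1417 (33.3%) lay in the 1309 regions where both marks were present in both conditions, and 872 (20.5%) lay elsewhere. The opposite pattern, steady H3K27ac with H3K9ac in control only, was found in 1883 regions. The log2 ratio of butyrate-only to control-only regions was therefore 0.03, with a counting interval of -0.06 to 0.12. Put as a share, 50.5% (49.0 to 52.1) of the regions that had H3K9ac in 1 condition only had it after butyrate. Of the steady H3K27ac regions with H3K9ac after butyrate, 59.5% lacked it in control, and of those with H3K9ac in control, 59.0% lacked it after butyrate. The butyrate-only regions are thus accompanied by nearly as many control-only regions, and both are set beside each other below. The remaining 16016 steady H3K27ac regions had no H3K9ac peak in either list.

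A butyrate-only region had a median width of 573.5 bp, with quartiles at 431 and 770 bp and a maximum of 2505 bp. Its H3K9ac covered a median of 244 bp (quartiles 213 and 299, maximum 825), little more than the smallest peak in any list, 200 bp. Its H3K27ac covered a median of 476 bp in control and 474 bp after butyrate. The H3K9ac peaks were thus the narrower of the 2 marks. Of the 1966 H3K9ac peaks, 13.2% had the smallest width, 64.1% were wider than that up to 300 bp, 21.0% were above 300 and up to 500 bp, and 1.68% were wider still. The median peak of 243 bp equalled that of the control-only regions (243 bp) and was below the 272 bp of regions with H3K9ac in both conditions, where 5.08% of the butyrate peaks exceeded 500 bp.

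The H3K9ac of these regions was found more often on wide H3K27ac than on narrow H3K27ac. Among steady regions with 200 to 300 bp of control H3K27ac, 4.76% were butyrate-only. The share was 9.13% above 300 and up to 500 bp, 13.8% above 500 and up to 1000 bp, and 14.9% above 1000 bp. Control-only regions gave 4.55%, 9.13%, 13.1% and 17.1% in the same classes. Regions with H3K9ac in both conditions went from 1.05% in the narrowest class to 31.7% in the widest. Up to 1000 bp a region with H3K9ac mostly had it in 1 condition. Above 500 and up to 1000 bp, 781 were butyrate-only, 738 control-only and 658 had it in both. Above 1000 bp H3K9ac in both conditions was the most frequent of the 3 patterns, with 237 regions beside 111 butyrate-only and 128 control-only ones. A wide region also offers more bases to be overlapped by any peak, and the part of this in the shares was not tested.

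**Figure D1:**
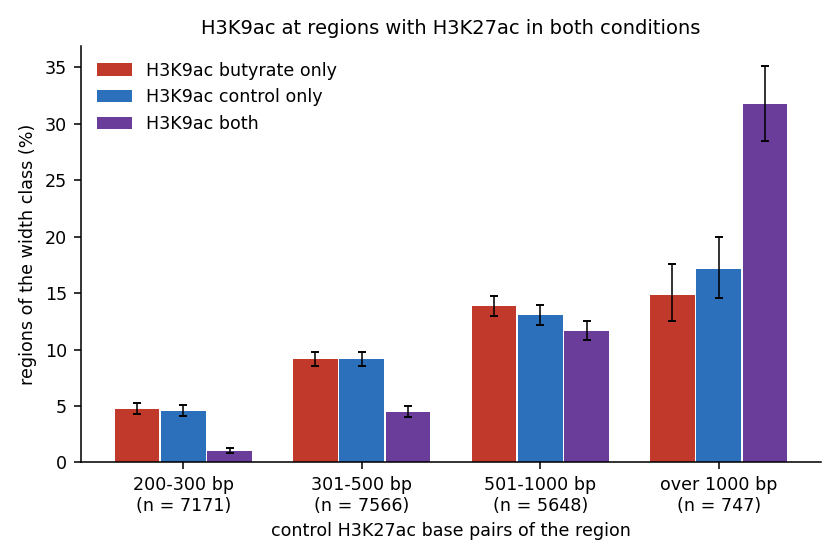
Share of regions (%) with H3K9ac after butyrate only, in control only and in both conditions, among regions with H3K27ac in both conditions, by control H3K27ac width class in bp. Error bars are 95% Wilson intervals (counting error only); the butyrate-only and control-only bars stay close in each class (4.76% and 4.55% in the narrowest), while the bar for both conditions reaches 31.7% in the widest.

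The members with the most H3K9ac show how the marks were laid out. The widest H3K9ac, 825 bp, was at chromosome 6, 12963719 to 12965840 (UMD3.1.1, as all positions here). There 3 H3K9ac peaks of 288, 274 and 263 bp stood in a row on a single H3K27ac peak, which spanned 1887 bp in control and 2122 bp after butyrate. The nearest control H3K9ac peak was 17618 bp away and the next butyrate-only region 4835103 bp away. The second, at chromosome 10, 85611847 to 85613250, had 779 bp of H3K9ac in 2 peaks. Its H3K27ac was 1 peak of 1332 bp in control and 2 peaks of 501 and 572 bp after butyrate. The next, at chromosome 5, 98607687 to 98608928, went the other way in H3K27ac, with 2 peaks in control (538 and 478 bp) and 1 of 1242 bp after butyrate, under H3K9ac peaks of 271 and 479 bp. H3K27ac was thus split or joined between the lists at these sites while covering much of the same ground.

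The other regions among the 10 widest covered 632 to 744 bp with H3K9ac. The widest single H3K9ac peak, 676 bp, was at chromosome 16, 53325030 to 53325838, and reached beyond the H3K27ac peaks of 425 bp in control and 562 bp after butyrate. None of the 10 overlapped an RNA pol II or H3K9me3 peak. Over all members RNA pol II in either list was found in 3.79% and H3K9me3 in 0.468%, so their absence from 10 regions says little. H3K27ac covered more bases after butyrate in 7 of them and fewer in 3, with log2 ratios from -0.31 to 0.48. As many as 3 H3K9ac peaks were present in only 3 of all butyrate-only regions, those on chromosomes 6 and 22 (50304238 to 50305578) that are among the widest and 1 on chromosome 11 (28416716 to 28417514). A pair of H3K9ac peaks was present in 36, and 1885 had a single peak.

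The choice placed peaks of 3 lists in 1 short region, and how they lay within it is given as a description. In 1640 of 1924 regions (85.2%) there was exactly 1 peak of each list. In these the H3K9ac centre was a median of 65.75 bp from the control H3K27ac centre, and 66.0% of the centres were within 100 bp. The butyrate H3K27ac centre was a median of 43 bp from the control one. The H3K9ac peak had a median of 59.7% of the width of the control H3K27ac peak and was at least as wide in 172 regions. It lay to the higher-coordinate side of the H3K27ac centre in 790 of the 1640 regions (48.2%, 45.8 to 50.6), so neither side was favoured beyond counting error. The control-only regions had a median centre distance of 59.5 bp and 68.0% within 100 bp.

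**Figure D2:**
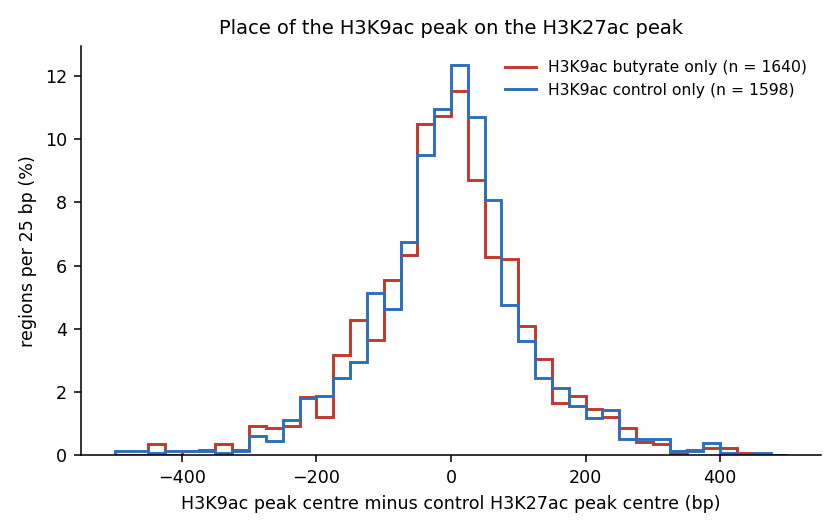
Distance in bp from the control H3K27ac peak centre to the H3K9ac peak centre (x axis) against the share of regions per 25 bp (y axis, %), for regions with 1 peak of each list, 1640 with H3K9ac after butyrate only and 1598 in control only. Both curves are centred near 0, with median absolute distances of 65.75 and 59.5 bp.

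Of all H3K9ac base pairs in the members, 90.2% lay under control H3K27ac, 90.3% under butyrate H3K27ac and 96.5% under either. Of the 1966 H3K9ac peaks, 1083 (55.1%) were wholly inside an H3K27ac peak of each condition. Another 31 touched only the control H3K27ac peak and 22 only the butyrate one, in regions where the H3K27ac peaks themselves joined the lists. The choice itself required the 3 lists to meet in a region, so these overlaps describe the layout and are no independent result.

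The width of H3K27ac was similar before and after butyrate over the members as a whole. H3K27ac was wider after butyrate in 910 regions (47.3%), narrower in 973 and equal in 41. Its sum was 1033549 bp in control and 1021117 bp after butyrate, a log2 ratio of -0.02. The median log2 ratio per region was -0.01, with 10% of the regions below -0.65 and 10% above 0.60. The medians were also -0.01 in control-only regions and in regions with H3K9ac in both, and -0.02 where there was no H3K9ac. Across the 1924 regions control and butyrate widths had a Spearman correlation of 0.70, given as a description, since the points share libraries. H3K9ac width and butyrate H3K27ac width had 0.19.

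**Figure D3:**
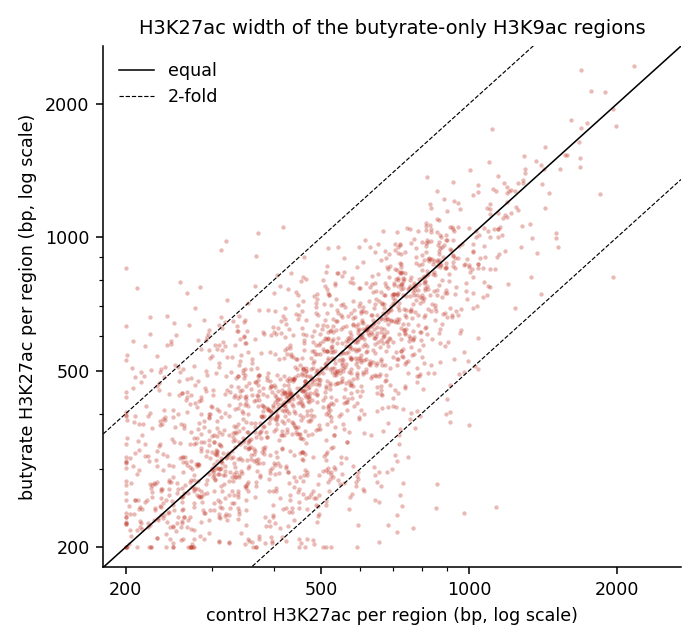
H3K27ac base pairs per region in control (x axis) and after butyrate (y axis), both in bp on log scales, 1 point for each of the 1924 butyrate-only H3K9ac regions. The solid line marks equal widths and the dashed lines a 2-fold difference; 56 regions were at least 2-fold wider after butyrate and 64 at least 2-fold narrower.

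A few regions changed much in H3K27ac. It was at least 2-fold wider after butyrate in 2.91% of members and at least 2-fold narrower in 3.33%. The shares were 2.97% and 3.13% in control-only regions, 1.76% and 2.29% with H3K9ac in both, and 3.89% and 4.66% without H3K9ac. The largest widening was at chromosome 26, 24646846 to 24647699, where a control peak of 200 bp faced a butyrate peak of 854 bp (log2 ratio 2.09), with 282 bp of H3K9ac at the end where both H3K27ac peaks lay. At chromosome 11, 20966236 to 20967005, H3K27ac covered 211 bp in control and 770 bp after butyrate, and at chromosome 29, 44694156 to 44694785, it covered 200 and 630 bp. The control peaks of these widenings were at or near 200 bp, the smallest width in any list. The largest narrowing was at chromosome 4, 89975251 to 89976532, from 1133 bp to 246 bp (log2 ratio -2.20). There the H3K9ac peak of 231 bp, ending at 89975481, overlapped only the control H3K27ac peak and ended before the butyrate H3K27ac peak began at 89975916. At chromosome 19, 8950400 to 8951373, H3K27ac covered 974 bp in control and 239 bp after butyrate, and at chromosome 15, 53079142 to 53079998, it covered 857 and 245 bp. The butyrate peaks of these narrowings, 239 to 246 bp, were likewise near 200 bp. H3K9ac after butyrate was thus called both where H3K27ac had widened and where it had narrowed.

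How far the members lay from control H3K9ac varied over a wide range. The nearest control H3K9ac peak was a median of 53351.5 bp away, with quartiles at 8867 and 209786 bp. It was within 500 bp of 116 regions, within 1 kb of 185 (9.62%, 8.38 to 11.0), within 10 kb of 505 and within 50 kb of 942 (49.0%). The shares within 1 kb were 10.8% for control-only regions towards butyrate H3K9ac and 8.17% for the regions without H3K9ac towards control H3K9ac. The closest was at chromosome 12, 22001703 to 22002214, 33 bp before a control H3K9ac peak of 206 bp (22002248 to 22002453). Just inside the choice, 4 members were within 100 bp of such a peak. Just outside it, the smallest overlap of control and butyrate H3K9ac in a shared region was 1 bp, and in 88 of the 1309 regions with H3K9ac in both conditions the H3K9ac peaks did not touch each other. At the other end, a member at chromosome 1, 34969796 to 34970860, was 7487773 bp from any control H3K9ac peak, and others at chromosome 1 (10069812 to 10070247) and chromosome 8 (16745891 to 16746816) were 6694246 and 5222631 bp away.

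RNA pol II, which did not enter the choice, was found in few members. Its control peaks overlapped 25 of 1924 regions (1.30%, 0.882 to 1.91) and its butyrate peaks 53 (2.75%, 2.11 to 3.59). Over all merged regions the shares were 0.602% in control and 1.03% after butyrate, and over steady H3K27ac regions without H3K9ac 0.593% and 0.993%, in each case below the interval of the members. Regions with H3K9ac in both conditions had 4.35% (3.38 to 5.60) and 6.65% (5.42 to 8.13), above it. Control-only regions had 1.54% (1.07 to 2.20) and 3.51% (2.76 to 4.43), and these intervals overlap those of the members. Pooled over widths, RNA pol II was thus least frequent without H3K9ac and most frequent with H3K9ac in both conditions. Between butyrate-only and control-only H3K9ac, the shares did not differ beyond counting error.

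The butyrate list of RNA pol II was the longer one, and both RNA pol II libraries were run on lane 3. It held 1242 autosomal peaks against 673 in control, a ratio of 1.85. The ratio of members hit was 2.12, that of control-only regions was 2.28, that of regions with H3K9ac in both was 1.53 and that of regions without H3K9ac 1.67. The higher count after butyrate was therefore also found in regions whose H3K9ac was called in control only. Of the members, 48 (2.49%) had RNA pol II after butyrate only, 20 (1.04%) in control only and 5 (0.2599%) in both. The control-only regions had 3.13%, 1.17% and 0.372% in the same order, and in each case their interval overlaps that of the members. Over all merged regions the shares were 0.868%, 0.441% and 0.162%. A larger share after butyrate only than in control only was thus not particular to the members. On the H3K9ac peak itself lay the RNA pol II of 23 of 25 regions in control and 42 of 53 after butyrate. This was not counted for the other classes of region, so whether it is particular to the members was not tested.

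RNA pol II was also compared within the 4 classes of control H3K27ac width. After butyrate, members had an RNA pol II peak in 1.76% (200 to 300 bp), 2.17% (up to 500 bp), 3.46% (up to 1000 bp) and 4.50% (above 1000 bp) of regions. Control-only regions had 2.76%, 2.46%, 4.34% and 6.25%, and their intervals overlap those of the members in each class. Regions with H3K9ac in both had 9.33%, 5.01%, 5.47% and 11.4%, and regions without H3K9ac had 0.747%, 1.06%, 1.33% and 1.11%. In each class the butyrate RNA pol II share was thus lowest without H3K9ac and highest with H3K9ac in both. The interval of the members overlapped that of regions without H3K9ac in every class except above 500 and up to 1000 bp. It overlapped that of regions with H3K9ac in both in every class except the narrowest. Overlap of separate intervals does not settle whether the shares differ, and the steps between them were not tested. In control the same order of the shares held up to 1000 bp, where members had 1.17%, 1.16% and 1.41% and regions without H3K9ac 0.327%, 0.701% and 0.749%. Above 1000 bp it did not: 7 of 271 regions without H3K9ac (2.58%, 1.26 to 5.23) had control RNA pol II, against 2 of 111 members (1.80%, 0.496 to 6.33) and 1 of 128 control-only regions (0.781%, 0.138 to 4.29). Within the members, H3K9ac of 200 to 223 bp went with a butyrate RNA pol II peak in 2.28% of 657 regions, H3K9ac of 224 to 275 bp in 3.31% of 635, and wider H3K9ac in 2.69% of 632. The intervals of these 3 shares overlap, so no dependence on H3K9ac width was detectable with these numbers.

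**Figure D4:**
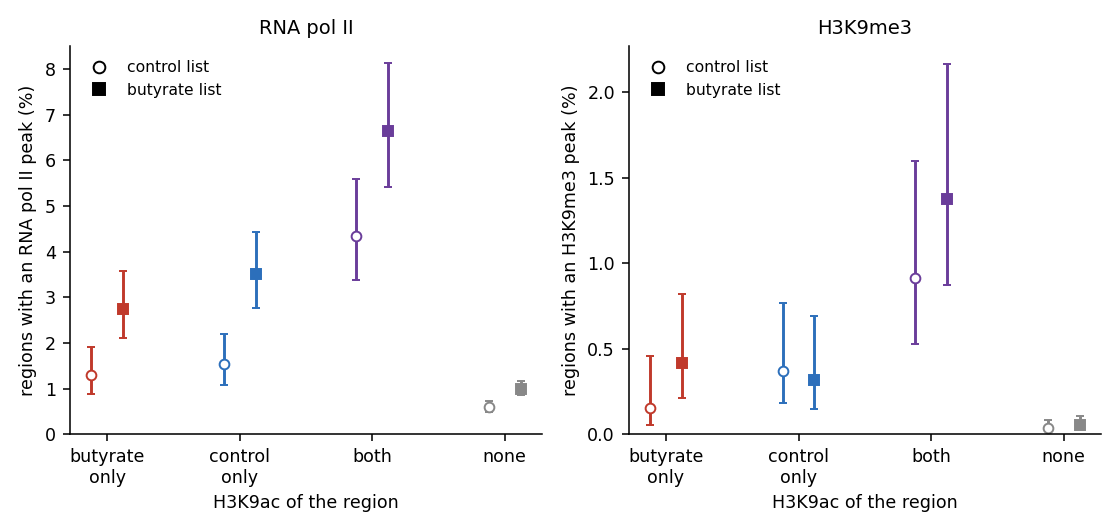
Share of regions (%) overlapped by an RNA pol II peak (left) and an H3K9me3 peak (right), by the H3K9ac pattern of the region; open circles are control lists, filled squares butyrate lists, bars 95% Wilson intervals (counting error only). For RNA pol II after butyrate the shares are 2.75% for butyrate-only, 3.51% for control-only, 6.65% for both and 0.993% for no H3K9ac.

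The members with RNA pol II after butyrate only and the widest H3K9ac were spread over several chromosomes. At chromosome 11, 71347597 to 71349669, 2 RNA pol II peaks with 603 bp in all overlapped a wide region with 1992 bp of H3K27ac in control and 1784 bp after butyrate. At chromosome 18, 57808549 to 57809478, a peak of 231 bp came with 463 bp of H3K9ac, and H3K27ac covered 883 and 902 bp. At chromosome 15, 52456357 to 52457019, a peak of 200 bp came with 440 bp of H3K9ac. At chromosome 6, 115911009 to 115911405, H3K27ac was narrower after butyrate (350 and 203 bp), and RNA pol II covered 254 bp. At chromosome 17, 54886512 to 54887073, the RNA pol II peak was 275 bp and a control H3K9ac peak lay 251 bp away. The opposite case, RNA pol II in control only, included the region of chromosome 11 with 3 H3K9ac peaks (200 bp of RNA pol II) and regions at chromosome 3, 101819491 to 101820094 (256 bp), and chromosome 5, 26139364 to 26139803 (277 bp). H3K9ac called after butyrate only was thus seen with RNA pol II called in either condition and, in nearly all members, in neither. RNA pol II in either list was found in 3.79% of members and 1.47% of all merged regions. Its lists were short (673 and 1242 autosomal peaks), so a missing peak does not show that RNA pol II was absent.

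H3K9me3 was rarer still. Its control peaks overlapped 3 members (0.156%, 0.0530 to 0.457) and its butyrate peaks 8 (0.416%, 0.211 to 0.818), against 0.215% and 0.221% of all merged regions. In control-only regions the counts were 7 and 6 (0.372% and 0.319%), and in regions with H3K9ac in both 12 and 18 (0.917% and 1.38%). In the 16016 without H3K9ac they were 6 and 9 (0.0375% and 0.0562%). The shares without H3K9ac lay below the intervals of the members, those with H3K9ac in both above them, and those of control-only regions within them. All these counts are small, and the differences were not tested. In total 9 members had H3K9me3 in either list, and 6 of these also had RNA pol II. Over all members 3.79% had RNA pol II in either list, and over all merged regions 1.47%. The meeting of H3K9me3 and RNA pol II was not counted for the other classes, so whether it is particular to the members was not tested. At chromosome 1, 91215790 to 91216147, peaks of 7 lists met: H3K9me3 of 661 bp in control and 887 bp after butyrate, RNA pol II of 468 and 698 bp, H3K27ac of only 200 and 227 bp, and 358 bp of H3K9ac after butyrate. At chromosome 9, 32402755 to 32403010, the same 7 lists had peaks of 200 to 299 bp, and 6 of them began at the same base. At chromosome 14, 72580990 to 72581799, RNA pol II of both conditions and butyrate H3K9me3 overlapped 587 bp of H3K9ac. The nearest control H3K9ac peak was 844554 bp from this site, and 788693 and 2368616 bp from those on chromosomes 1 and 9. Peaks called for marks of active and of silent chromatin thus overlapped at single members. Peak lists of tissue do not show whether the marks lay together in the same cells. The part of the shared input in such sites was not tested.

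Along the genome the members averaged 0.767 per Mb, with chromosome lengths set by their last peak in the lists. Chromosome 19 had the highest density, 1.95 per Mb (125 regions), and chromosome 20 the lowest, 0.305 (22 regions). Steady H3K27ac regions numbered 1363 on chromosome 19 and 316 on chromosome 20. The members made up from 6.96% (chromosome 20) to 11.9% (chromosome 29) of the steady regions of a chromosome. Chromosome 7 held the most members, 132, against 99 control-only regions (57.1% of the sum, 50.7 to 63.4). Chromosome 29 had 64 against 38 (62.7%, 53.1 to 71.5), and chromosome 14 had 39 against 60 (39.4%, 30.3 to 49.2). On 17 chromosomes butyrate-only regions were the more numerous, on 11 the control-only ones, and on 1 they were equal. The intervals of 3 of the 29 chromosomes left out the genome-wide 50.5%.

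**Figure D5:**
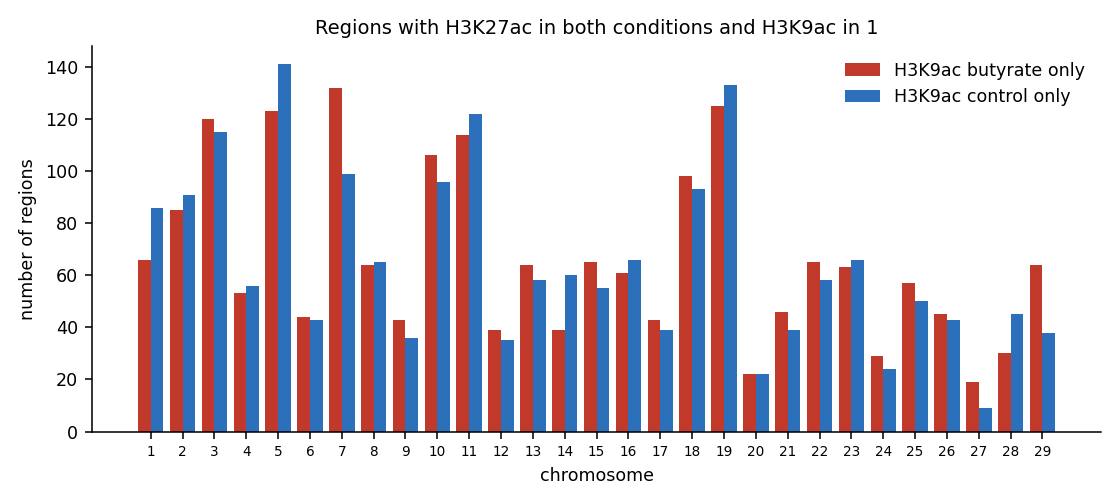
Number of regions (y axis) on chromosomes 1 to 29 (x axis) with H3K27ac in both conditions and H3K9ac after butyrate only or in control only. The 2 bars rise and fall together; chromosomes 7 (132 and 99) and 29 (64 and 38) have more butyrate-only regions and chromosome 14 (39 and 60) fewer.

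Another member lay within 1 kb of 118 members, within 10 kb of 311 (16.2%, 14.6 to 17.9) and within 50 kb of 635 (33.0%, 30.9 to 35.1). The control-only regions had 12.5% (11.1 to 14.1) within 10 kb and 30.5% (28.4 to 32.6) within 50 kb. With gaps of at most 10 kb, the members formed 128 pairs, 14 runs of 3 and 3 longer runs, the longest of 5. The adjoining steady H3K27ac regions on both sides of each member were pooled, 3838 in all, each counted for every member it adjoined. Of these, 9.43% were themselves members, against the members' share of 9.10% of all steady H3K27ac regions. Control-only regions made up 10.1%, against 8.91%. Regions with H3K9ac in both conditions made up 7.19% of these neighbours, against 6.19%, and those without H3K9ac 73.3%, against 75.8%. The neighbours of a butyrate-only region thus lacked H3K9ac somewhat less often than steady regions genome-wide. Whether these differences exceed counting error was not tested.

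The window of 1 Mb with the most members was chromosome 10, 80000001 to 81000000, which held 12 of 64 steady H3K27ac regions, beside 6 control-only regions and 2 with H3K9ac in both. They ran from 80519837 to 80987143. One of the widest H3K9ac peaks, 669 bp (80720349 to 80721017), was among them, on H3K27ac of 1147 bp in control and 1374 bp after butyrate. Only the pair at 80966978 to 80967668 and 80969194 to 80969750, 1525 bp apart, had RNA pol II, and both had it after butyrate only. In this pair H3K27ac covered fewer bases after butyrate (508 against 691, and 423 against 557), and control H3K9ac peaks lay 789 and 379 bp away. Another 4 windows held 9 members each. Those first in chromosome order, at chromosome 2, 107000001 to 108000000, and chromosome 7, 45000001 to 46000000, had 7 and 3 control-only regions. In the chromosome 2 window no member had RNA pol II, and in the chromosome 7 window 1 did, in control. The others, at chromosome 19, 27000001 to 28000000, and chromosome 29, 43000001 to 44000000, had 5 and 4 control-only regions, and 2 and 9 with H3K9ac in both.

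A window at chromosome 22, 50000001 to 51000000, held 8 members, 2 control-only regions and no region with H3K9ac in both; it was singled out after its values were seen, because 2 of the 10 widest H3K9ac regions lay in it. At 50304238 to 50305578, 3 H3K9ac peaks of 203, 276 and 265 bp came with 2 separate H3K27ac peaks in each condition (346 and 489 bp in control, 558 and 607 bp after butyrate). The middle H3K9ac peak bridged the butyrate H3K27ac peaks and touched neither control one. At 50330819 to 50332777, H3K9ac peaks of 427 and 212 bp stood on H3K27ac of 1959 and 1944 bp, and a further member was 185 bp away. The nearest control H3K9ac was 76232 and 49033 bp off. Over the genome, 916 of 2523 windows held at least 1 member, 83 held 5 or more, and 591 of the 916 held control-only regions too.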

How the data were processed

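The deposited lists give the chromosome, start and end of each peak, in base pairs (UMD3.1.1 per the methods, UMD3.1 per the labels). The authors aligned reads with BWA and called peaks with MACS2 2.1.1, each library on its own against the input. Labels also name Trim Galore 0.4.1. Positions were read as 1-based with both ends included. No list analysed here holds scores or counts. Reads are called single-end in the series text and paired-end in the methods.

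Peaks of the 4 acetylation lists overlapping by 1 bp or more were merged (Python 3.11.15), and a count with bedtools 2.31.1 gave the same 46982 regions and 1924 members. The merging was tested on simulated lists. RNA pol II and H3K9me3 peaks were then overlapped. Named regions were the widest in H3K9ac, those with 3 H3K9ac peaks, the widest with RNA pol II or H3K9me3, the extremes of H3K27ac change and of distance to control H3K9ac, and the fullest 1 Mb windows. The members and these rules were chosen with earlier results of these data known. The gene table at hand is of another assembly, so genes and start sites were not analysed here.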

Additional observations from a re-analysis of the deposited data

Results flagged for a closer look

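Chromosome X was outside the comparisons and also held such regions: 21 had H3K27ac in both conditions and H3K9ac after butyrate only, against 9 in control only (70.0% of the sum, Wilson 95% interval 52.1 to 83.3, counting error only), 15 with H3K9ac in both and 222 without it. The X list of H3K9ac itself held 37 peaks in control and 72 after butyrate. None of the 21 was compared with a replicate, and whether the share on X differs from that of the autosomes was not tested.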

How the results depend on the processing

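No paired analysis was possible because there was 1 library per group. For 11 results and 7 alternatives, 57 of 76 values stayed within 1.5 times the reported count or within the counting interval of the reported value, and 19 did not. The last alternative, members with no control H3K9ac within 1 kb (and control-only regions likewise), was chosen after seeing the data and gave 1739 members and a log2 ratio to control-only regions of 0.05. Keeping only peaks at or above the median width of their list left 927 members and 946 control-only regions (log2 ratio -0.029). It gave RNA pol II in 0.863% in control, H3K9me3 in 0% and 0.108% in control and butyrate, a median control H3K27ac of 575 bp, a control H3K9ac peak within 1 kb of 6.26%, 97.7% of H3K9ac base pairs under H3K27ac and another member within 50 kb of 21.5%. Leaving out peaks of 200 bp gave RNA pol II after butyrate in 2.06%, H3K9me3 after butyrate in 0.177%, a median control H3K27ac of 493 bp and another member within 50 kb of 29.8%. Joining peaks up to 500 bp apart gave a median H3K27ac log2 ratio of -0.037, a median control H3K27ac of 666 bp, and shares of 1.54% with control H3K9ac within 1 kb, 93.7% of H3K9ac base pairs under H3K27ac and 28.1% with another member within 50 kb. An overlap of at least 50% of the shorter peak gave 97.6% of H3K9ac base pairs under H3K27ac. H3K9ac peak numbers were made equal by keeping the 4115 widest peaks of each list over all chromosomes. This left the control list whole and dropped only the narrowest butyrate peaks. The log2 ratio of butyrate-only to control-only regions was then -0.070, outside the counting interval of the reported ratio (-0.061 to 0.123). The sign of the ratio, whose counting interval includes 0, thus turned under this choice and under the median width. Fewer peaks and a wider joining follow from how these alternatives are built, and other causes were not tested. The share of members near transcription start sites was not run. Without replicates and read depth, a peak absent from the control list cannot be told apart from one just under the calling threshold.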
